A study of Mus musculus with 16 samples.

Results

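Glycogen is the branched glucose store of the liver, and 9 genes of its synthesis, breakdown and dephosphorylation were followed across 4 groups of mouse livers: Ppp1r3b, Ppp1r3c, Ppp1r3g, Gyg, Ugp2, Gys2, Gbe1, Pygl and Phka2. They were taken by symbol from a table of 51912 genes, of which 14920 had enough reads to be tested. All 9 were found, and all 9 were tested, Ppp1r3g through its reads in fasted livers alone. The livers came from male mice that began a control amino acid diet or a low isoleucine diet at 10 weeks of age, ate it for 3 weeks at about 22 °C, and were 13 weeks old at collection. Each diet was sampled after an overnight fast of 16 h and after refeeding, with 4 libraries in each of the 4 groups. No other treatment is named for any group. The sources used here do not give the strain, the length of refeeding or the isoleucine content. Since no label says that each library came from a separate mouse, p-values measure the spread between libraries, which may be partly technical. The number in the sample titles takes 1 value per group (1, 2, 7 or 9), so whatever it marks cannot be told apart from diet and feeding state.

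As background, hepatocytes store glucose as glycogen after a meal and release it during a fast. Glycogenin, encoded by Gyg, primes the chain, UDP-glucose pyrophosphorylase (Ugp2) makes the activated glucose, liver glycogen synthase (Gys2) extends the chain and the branching enzyme (Gbe1) adds branches. Liver glycogen phosphorylase (Pygl) releases glucose 1-phosphate and is switched on by phosphorylase kinase, of which Phka2 encodes the liver form of a regulatory subunit. Phosphorylation inhibits glycogen synthase and activates phosphorylase, and protein phosphatase 1 (PP1) reverses both. Its PPP1R3 targeting subunits bring the catalytic subunit to the glycogen particle: Ppp1r3b encodes GL, the hepatic targeting subunit, Ppp1r3c encodes PTG, and Ppp1r3g encodes another targeting subunit found in liver. Enzyme activity in this pathway is set largely by phosphorylation and by glucose 6-phosphate, neither of which a transcript level measures.

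Refeeding separated the targeting subunits from each other. Ppp1r3b and Ppp1r3c were higher in refed than in fasted livers on both diets, by 2.05-fold to 2.76-fold, and Ppp1r3g was lower on both. On the control diet 3 of the 9 genes rose (Ppp1r3b, Ppp1r3c and Gyg) and 1 fell (Ppp1r3g), where 8.91% of all tested genes rose and 8.2% fell at an adjusted p under 0.05. Without control refed library 4, described below, 3 passed there: Ppp1r3b and Gbe1 rose and Ppp1r3g fell. Of the 15043 genes tested without that library 2743 passed, 1370 of them upward. On the low isoleucine diet 4 rose (Ppp1r3b, Ppp1r3c, Gbe1 and Pygl) and 2 fell (Ppp1r3g and Gys2), where 9.6% of all tested genes rose and 11.8% fell. Counted by libraries that did not overlap, 2 genes were higher and 1 lower on the control diet, where 9.5% and 9.62% of all tested genes were, and low isoleucine feeding gave 2 higher and 2 lower, where 11.6% and 13.1% were. In all these counts Ppp1r3g passed the low-count filter through its fasted libraries alone, so its fall is not independent of that filter. Among the enzymes, Gys2, Gbe1 and Pygl passed the test on the low isoleucine diet and not on the control diet, and Gyg did the reverse. Gys2 fell, while Gbe1 and Pygl rose on low isoleucine and Gyg rose on control. None of these differences between the diets passed its own test. No gene of the 9 passed in any comparison of the diets.

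Poly-A selected, stranded libraries held between 24368656 and 34002955 estimated counts. Summed CPM of 7 hepatocyte markers ran from 61024 to 114061, and the 5 skeletal muscle markers summed to at most 0.110 CPM in any library. CPM, the count scaled to the library's total by the trimmed mean of M values (TMM), is the unit of all levels below. The fourth control refed library stood apart. It had the highest summed CPM of the 16 libraries for 10 Kupffer cell markers (440, against 231 to 318 in the other control refed libraries), for 7 stellate cell markers (505 against 188 to 227) and for 7 endothelial markers (288 against 110 to 176), as well as for the lymphocyte and neutrophil lists. Its summed hepatocyte markers, 79181 CPM, were close to the 75821 to 78606 CPM of the other control refed libraries. Of the genes used as checks of feeding state, 2 that are higher after feeding lay within the fasted range in this library: Fasn at 62.2 CPM (44.8 to 85.5 in fasted and 348 to 545 in the other control refed libraries) and Srebf1 at 31.7 CPM (11.1 to 34.4 in fasted libraries). Irs2 at 8.93, Igfbp1 at 10.7 and Insr at 71.6 CPM lay below every fasted library there, whose lowest values were 17.1, 44.6 and 135 CPM. Each gene's refeeding value on the control diet is given with and without this library, and the part of these markers and feeding checks in those values was not tested. With whole liver, fewer cells of a type and less RNA per cell cannot be told apart.

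RefSeq promoters (build GRCm38.p6, 250 bases before to 50 after the annotated start) were matched by symbol for 7 of the 9 genes, with 8 promoters in all. There was no entry for Ppp1r3b or Gys2. Both strands were searched for the E-box CACGTG, the cyclic AMP response element TGACGTCA, the FOXO site GTAAACA, the C/EBP-ATF element TGATGCAA and the sterol element TCACNCCAC. The E-box was in the promoters of Ppp1r3c and Gyg, and none of the 5 motifs was in the other 6. Of 32851 promoters of this length, 7.15% held the E-box, 1.79% the cyclic AMP response element, 3.65% the FOXO site, 0.895% the C/EBP-ATF element and 1.24% the sterol element. The 3 sequences below show both E-box promoters and that of Ppp1r3g, which was lower after refeeding on both diets, and capitals mark the E-box. The Ppp1r3c window is chr19:36736555-36736854 on the minus strand with the E-box starting at base -104 from the start. The Gyg window is chr3:20155067-20155366 on the minus strand with the E-box starting at base 9. The Ppp1r3g window is chr13:35967656-35967955 on the plus strand, which lies inside the gene's interval (chr13:35958839-35970388) and not at its first base.
Ppp1r3c: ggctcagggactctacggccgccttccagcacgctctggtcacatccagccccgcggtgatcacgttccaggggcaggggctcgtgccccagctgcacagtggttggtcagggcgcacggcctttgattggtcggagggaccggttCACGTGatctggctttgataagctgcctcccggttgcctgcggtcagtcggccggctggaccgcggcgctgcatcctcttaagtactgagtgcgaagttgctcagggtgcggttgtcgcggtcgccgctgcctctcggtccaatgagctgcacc
Gyg: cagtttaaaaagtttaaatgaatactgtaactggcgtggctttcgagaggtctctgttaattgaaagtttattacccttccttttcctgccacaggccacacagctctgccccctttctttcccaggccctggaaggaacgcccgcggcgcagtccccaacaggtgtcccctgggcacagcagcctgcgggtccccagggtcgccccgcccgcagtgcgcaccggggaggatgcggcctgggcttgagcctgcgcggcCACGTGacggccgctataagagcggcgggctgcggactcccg
Ppp1r3g: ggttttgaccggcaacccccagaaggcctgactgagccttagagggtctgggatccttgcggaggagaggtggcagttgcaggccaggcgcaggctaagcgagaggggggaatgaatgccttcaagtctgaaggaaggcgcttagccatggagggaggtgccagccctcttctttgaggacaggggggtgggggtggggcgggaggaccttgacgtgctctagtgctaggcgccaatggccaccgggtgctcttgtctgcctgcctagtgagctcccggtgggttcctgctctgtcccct
A match describes letters in a window and is not a binding site. The Ppp1r3c promoter had 26 CpG dinucleotides and that of Gyg 22, against 10 in that of Ppp1r3g and a median of 7 over all promoters. Promoters without an E-box had as many: 23 and 32 for Ugp2, 23 for Phka2 and 22 for Pygl, with 14 for Gbe1.

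Ppp1r3b (ENSMUSG00000046794, GRCm38 chr8:35375739-35388139) was the targeting subunit with the most transcript per kilobase in every group. In fasted livers it stood at 150, 119, 114 and 158 CPM in control libraries 1 to 4 and at 122, 177, 152 and 171 CPM on the low isoleucine diet. In refed livers it stood at 471, 363, 475 and 184 CPM on the control diet and at 367, 315, 301 and 290 CPM on low isoleucine. All refed values lay above all fasted values of the same diet, and library 4 of the control refed group was the lowest refed value of either diet. Refeeding raised Ppp1r3b by 1.47 on the log2 scale on the control diet (SE 0.230, 2.76-fold, adjusted p = 0.000407) and by 1.03 on the low isoleucine diet (SE 0.227, 2.05-fold, adjusted p = 0.00395), in edgeR's quasi-likelihood test with Benjamini-Hochberg adjustment over all tested genes. Without control refed library 4 the first value was 1.69 (edgeR adjusted p = 6.02e-06).

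Ppp1r3c (ENSMUSG00000067279, chr19:36731731-36736653) had lower levels and moved the same way. Control fasted libraries 1 to 4 stood at 44.8, 33.4, 23.1 and 29.1 CPM, and low isoleucine fasted libraries at 50.9, 33.4, 24.5 and 31.9 CPM. Control refed libraries stood at 73.4, 38.2, 81.3 and 84.5 CPM, and low isoleucine refed libraries at 94.2, 136, 89.8 and 47.7 CPM. On each diet 1 refed library, the second on control and the fourth on low isoleucine, lay within the fasted range, so the groups overlapped on both diets. The rise was 1.09 on the log2 scale on the control diet (SE 0.318, edgeR adjusted p = 0.0280) and 1.39 on low isoleucine (SE 0.319, edgeR adjusted p = 0.00595). The control call was lost without any of control fasted libraries 2, 3 or 4 or control refed libraries 1, 3 or 4, and it was 0.98 (edgeR adjusted p = 0.0664) without the last of these. It was also lost with no filter on low counts (edgeR adjusted p = 0.0885), whereas the low isoleucine call held without each of the 16 libraries.

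Ppp1r3g (ENSMUSG00000050423, chr13:35958839-35970388) showed the opposite pattern and by far the widest spread among the fasted livers. Control fasted libraries stood at 2.70, 0.580, 17.0 and 9.49 CPM, from 76, 17, 492 and 296 counts. Low isoleucine fasted libraries stood at 4.33, 2.28, 6.77 and 1.65 CPM, from 118, 66, 225 and 54 counts. The refed livers had almost none, with 2, 0, 1 and 7 counts on the control diet (0.0804, 0, 0.0399 and 0.174 CPM) and 0, 1, 5 and 2 counts on low isoleucine (0, 0.0310, 0.150 and 0.0574 CPM). Every fasted value was above every refed value of its diet. Summed over the 4 libraries of a group, the fasted level was 89.9 times the refed level on the control diet (881 against 10 counts, 95% interval 48.7 to 188) and 63.8 times on low isoleucine (463 against 8 counts, 32.1 to 149). These intervals cover counting error only. The fitted log2 fold changes were -6.44 (SE 1.07, edgeR adjusted p = 0.000931) and -5.89 (SE 1.11, edgeR adjusted p = 0.00170), and both calls held without each of the 16 libraries. No refed library reached the low-count filter's minimum of 10, so the gene was tested through its fasted libraries alone. Its fall, also where counted among the 9 genes, is therefore not independent of the filter. Any diet value in refed livers rests on these few counts. The control value was -7.47 (edgeR adjusted p = 0.00321) without control refed library 4 and -5.65 (0.00186) without control fasted library 3, and the low isoleucine value was -6.80 (0.00464) without low isoleucine refed library 3. Fasted control library 2 had 17 counts where library 3 had 492, so the coefficient of variation in that group was 99.6%, against 16.3% for Ppp1r3b in the same livers.

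**Figure D1:**
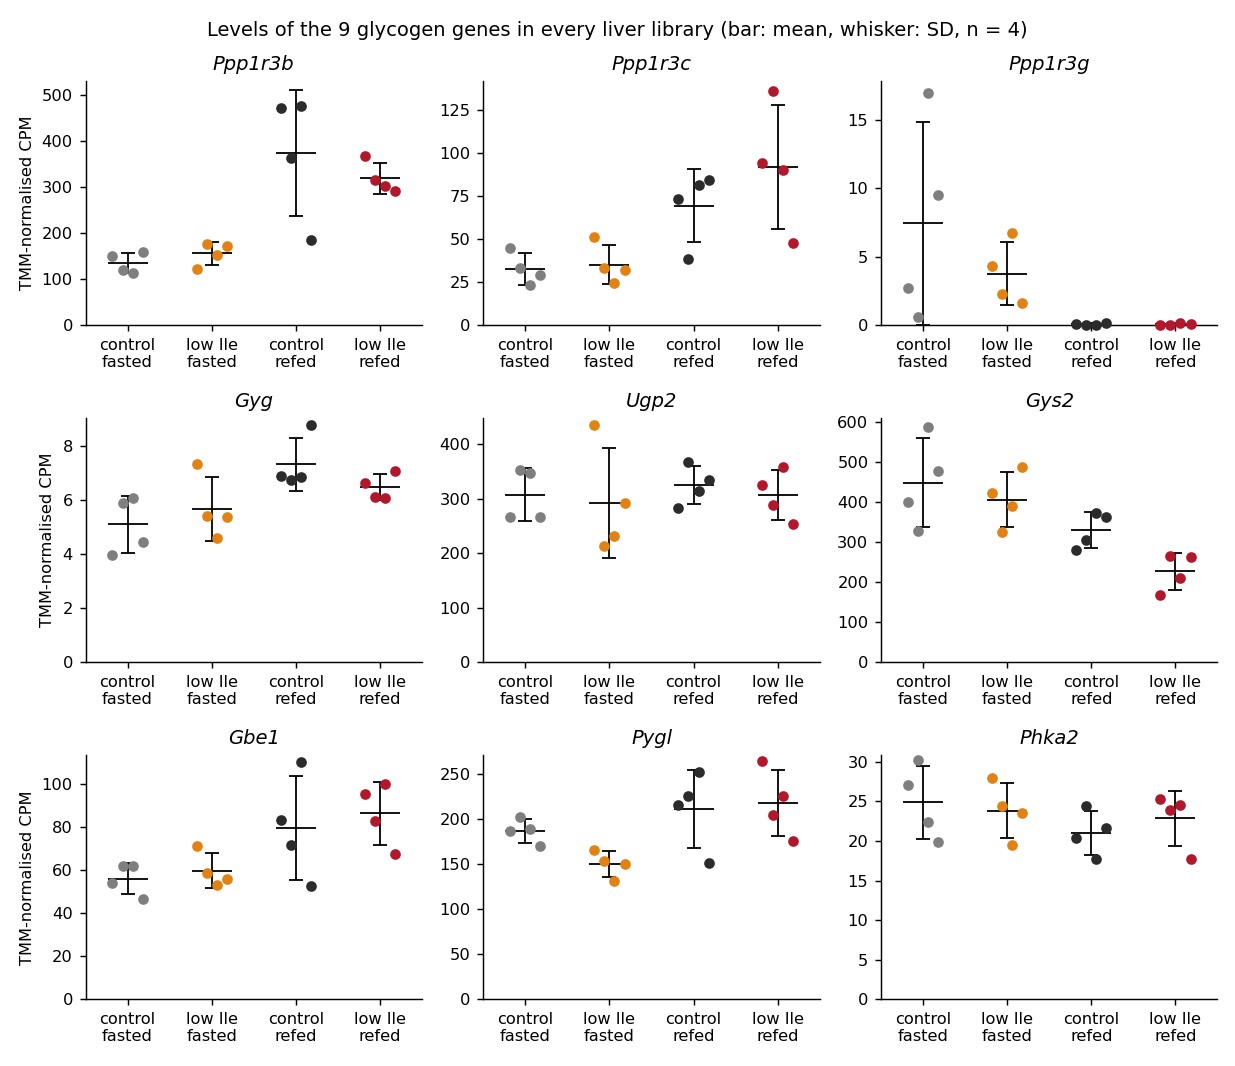
Level of each of the 9 genes in TMM-normalised CPM (vertical axes, each from 0) in the 4 groups; points are libraries, horizontal bars group means and whiskers the SD (n = 4). Ppp1r3b lay between 114 and 177 CPM in the fasted libraries and between 184 and 475 CPM in the refed ones, while Ppp1r3g was at most 0.174 CPM in any refed library.

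Per kilobase of exon, where genes of different length can be compared, the 4 measurable targeting subunits (these 3 and Ppp1r3e) summed in the fasted groups to 37.8 ± 4.77 CPM per kb (control diet) and 40.6 ± 2.40 (low isoleucine diet), as mean ± SD of 4 libraries. The refed sums were 87.5 ± 22.8 on the control diet and 86.7 ± 16.1 on low isoleucine. The lowest refed library, at 62.1 CPM per kb, was above the highest fasted library at 42.9. Ppp1r3b made up 57.3% ± 3.74 of the control fasted sum and 67.1% ± 13.4 of the control refed sum, and 61.7% ± 9.47 and 60.2% ± 8.98 of the fasted and refed sums on the low isoleucine diet. Ppp1r3c held 31.5% ± 7.14, 31.7% ± 9.36, 30.5% ± 13.5 and 37.8% ± 9.15 in control fasted, low isoleucine fasted, control refed and low isoleucine refed livers. Library ranges of the Ppp1r3c share overlapped between all groups: 24.7% to 38.4%, 24.2% to 45.4%, 18.8% to 49.97% and 26.7% to 48.8% in the same order. During the fast the share of Ppp1r3g averaged 7.48% ± 8.0 for the control diet and 3.53% ± 2.39 for low isoleucine, reaching 18.3% in control fasted library 3, and was 0.0365% and 0.0276% in the refed groups. Control refed library 4 was the only control refed library in which Ppp1r3c held as much of the sum (49.97%) as Ppp1r3b (47.7%).

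**Figure D2:**
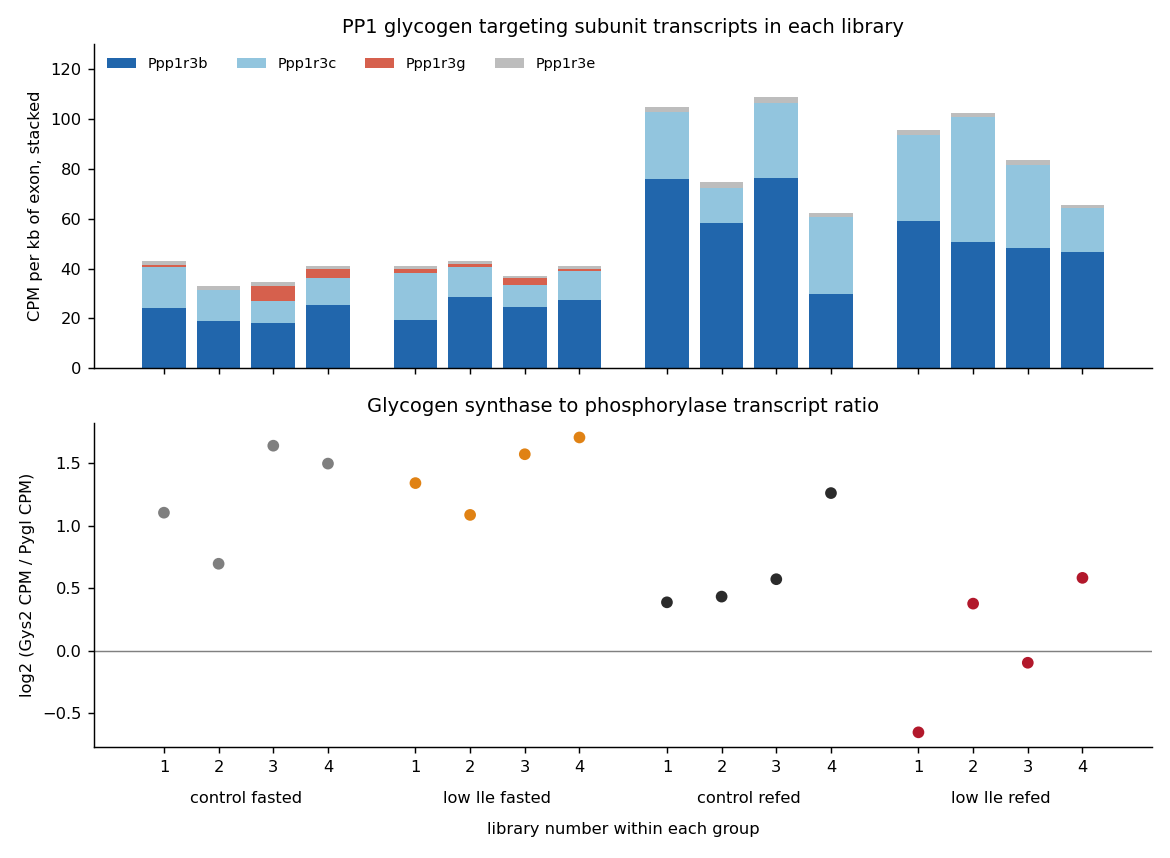
Upper panel: CPM per kb of exon of 4 PP1 glycogen targeting subunits, stacked, in each library. Lower panel: log2 of the ratio of Gys2 CPM to Pygl CPM in each library; fasted sums ran from 33.1 to 42.9 and refed sums from 62.1 to 109, and the ratio was below 0 in 2 low isoleucine refed libraries.

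Gyg (ENSMUSG00000019528, chr3:20122084-20155317), which encodes the protein primer of glycogen, was the enzyme gene with the lowest level. Control fasted libraries 1 to 4 stood at 3.98, 5.90, 6.08 and 4.43 CPM, and control refed libraries at 6.88, 6.75, 6.83 and 8.78 CPM. On the low isoleucine diet the fasted libraries stood at 7.34, 5.39, 4.58 and 5.38 CPM and the refed ones at 6.64, 6.11, 6.07 and 7.06 CPM. The control groups did not overlap, and on the low isoleucine diet fasted library 1 was above every refed library. Gyg rose by 0.52 on the log2 scale on the control diet (SE 0.171, edgeR adjusted p = 0.0448), and its low isoleucine value was 0.19 (edgeR adjusted p = 0.472). The control call held in 4 of the 16 fits that each left out a library: those without control fasted library 2 or 3 or low isoleucine fasted library 1 or 3. Without control refed library 4, which had the highest Gyg level of all, it was 0.42 (edgeR adjusted p = 0.113), and the call was also lost with upper-quartile scaling (0.0545), no low-count filter (0.0814) or only the compared groups in the fit (0.0913), all adjusted p from edgeR.

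Gys2 (ENSMUSG00000030244, chr6:142422613-142473109), liver glycogen synthase, went down on refeeding on the low isoleucine diet. Its fasted levels on the control diet were 401, 327, 589 and 479 CPM, and on low isoleucine 422, 325, 390 and 489 CPM. The refed levels were 281, 305, 374 and 363 CPM for control and 168, 266, 211 and 264 CPM for low isoleucine. The low isoleucine refed libraries lay below every low isoleucine fasted library, and below every control refed library too. Refeeding changed Gys2 by -0.84 on the log2 scale on the low isoleucine diet (SE 0.188, 1.79-fold lower, edgeR adjusted p = 0.00426), a call that held without each of the 16 libraries. On the control diet the value was -0.44 (SE 0.187, edgeR adjusted p = 0.121), or -0.49 (edgeR adjusted p = 0.104) without control refed library 4, and the fasted and refed libraries overlapped. The difference between the diets in this response was -0.40 (95% interval -0.95 to 0.16, edgeR adjusted p = 0.919).

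Gbe1 (ENSMUSG00000022707, chr16:70313949-70569716), the branching enzyme, stood at 53.8, 61.7, 62.0 and 46.7 CPM in control fasted libraries and at 83.1, 71.8, 110 and 52.5 CPM in control refed libraries. On the low isoleucine diet it stood at 71.1, 58.7, 53.0 and 56.0 CPM fasted and at 95.3, 82.6, 99.9 and 67.4 CPM refed. In the control refed group 3 libraries exceeded all control fasted libraries, and the fourth lay among them. The refeeding difference was 0.53 on the low isoleucine diet (SE 0.185, edgeR adjusted p = 0.04996) and 0.50 on the control diet (SE 0.185, edgeR adjusted p = 0.0745). Both sat near the threshold: the low isoleucine call held in 4 of 16 fits with a library left out (low isoleucine fasted 1, control refed 3, control refed 4 or low isoleucine refed 4), and was lost with limma-voom (adjusted p = 0.0552), with no filter (edgeR, 0.0589) and in a non-robust fit (edgeR, 0.0515). On the control diet the value became 0.65 (edgeR adjusted p = 0.0126) without control refed library 4, and it also passed with DESeq2 (adjusted p = 0.0479) and with scaling by library size alone (edgeR adjusted p = 0.0112).

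Ugp2 (ENSMUSG00000001891, chr11:21321138-21371201), which supplies UDP-glucose, ranged from 213 to 436 CPM in fasted and from 253 to 367 CPM in refed libraries. Its refeeding difference was 0.08 on the control diet (95% interval -0.33 to 0.48) and 0.06 on low isoleucine (-0.34 to 0.47), with edgeR adjusted p of 0.845 and 0.857, and the former was 0.06 without control refed library 4. Both extremes of the fasted range, 213 and 436 CPM, were low isoleucine libraries.

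Of the breakdown genes, Pygl (ENSMUSG00000021069, chr12:70190811-70231488), liver phosphorylase, went up on refeeding on the low isoleucine diet. The fasted levels were 187, 202, 189 and 170 CPM on the control diet and 166, 153, 131 and 150 CPM on low isoleucine. The refed levels were 215, 226, 252 and 151 CPM on the control diet and 264, 205, 226 and 176 CPM on low isoleucine. Low isoleucine fasted libraries had the lowest group mean and did not overlap with low isoleucine refed or with control fasted libraries, while control refed library 4, at 151 CPM, lay among them. Refeeding raised Pygl by 0.54 on the log2 scale on the low isoleucine diet (SE 0.148, edgeR adjusted p = 0.0158), a call lost without low isoleucine fasted library 3 or low isoleucine refed library 1. On the control diet the value was 0.18 (SE 0.148, edgeR adjusted p = 0.484), or 0.30 (edgeR adjusted p = 0.122) without control refed library 4. The difference between the diets in this response was 0.36 (95% interval -0.08 to 0.80, edgeR adjusted p = 0.873).

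Phka2 (ENSMUSG00000031295, chrX:160502166-160598878), a regulatory subunit of the kinase that activates phosphorylase, ranged from 19.5 to 30.2 CPM in fasted and from 17.7 to 25.3 CPM in refed libraries. The refeeding values were -0.24 (95% interval -0.56 to 0.08, edgeR adjusted p = 0.326) on the control diet, or -0.26 without control refed library 4, and -0.06 (-0.38 to 0.26, edgeR adjusted p = 0.823) on the low isoleucine diet, the latter turning to 0.05 when counts were scaled by library size alone.

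**Figure D3:**
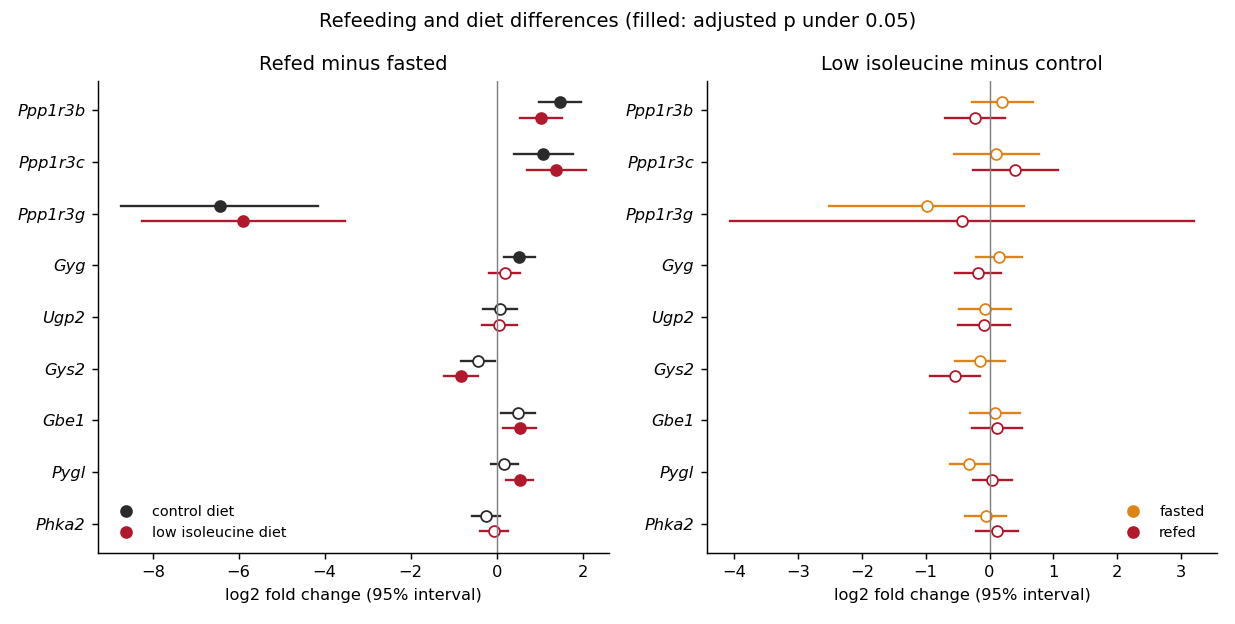
Left: log2 fold change of refed over fasted livers on each diet. Right: log2 fold change of low isoleucine over control diet in each feeding state; points are edgeR estimates, lines 95% intervals, and filled points have an adjusted p under 0.05. Ppp1r3b, Ppp1r3c and Ppp1r3g are filled on both diets on the left, and no point is filled on the right.

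Averaged over both diets, 5 of the 9 genes rose on refeeding and 2 fell, where 16.4% of all tested genes rose and 16.5% fell. The changes were 1.25 for Ppp1r3b (edgeR adjusted p = 2.2e-05), 1.24 for Ppp1r3c (0.000584), 0.52 for Gbe1 (0.00563), 0.36 for Pygl (0.0143) and 0.36 for Gyg (0.0308). The falls were -6.17 for Ppp1r3g (edgeR adjusted p = 2.66e-05) and -0.64 for Gys2 (0.00128), while Ugp2 at 0.07 and Phka2 at -0.15 did not pass. The median over the 9 genes was 0.36, against 0.02 over all tested genes. Without control refed library 4 the count was 6, where 5363 of 15043 tested genes passed. The gene lost was Gyg, then at 0.30 (edgeR adjusted p = 0.0627), and 8 of the 16 fits with a library left out lost Gyg. Marker lists of other liver cells overlapped between fasted and refed livers, other than the 4 adipocyte markers, of which 1 had enough reads to be tested: their summed level was 21.4 to 53.0 CPM in fasted and 3.32 to 15.7 CPM in refed libraries. Without control refed library 4, the stellate markers also separated on the control diet, at 264 to 391 CPM fasted and 188 to 227 CPM refed. The part of these markers in the refeeding results was not tested.

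The ratio of Gys2 to Pygl combines the enzymes that lengthen and shorten the chain. Its log2 value in fasted livers averaged 1.23 ± 0.42 for the control diet and 1.43 ± 0.27 for low isoleucine (SD, n = 4). In refed livers it averaged 0.66 ± 0.41 on the control diet and 0.05 ± 0.55 on low isoleucine. No low isoleucine refed library reached the lowest fasted value of that diet, 1.09, and the highest was 0.58. The control groups overlapped, with control refed library 4 at 1.26 and the other 3 between 0.39 and 0.57. No test was made of this ratio, which is a score over 2 of the genes.

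Comparing the diets asks whether low isoleucine moved these genes within a feeding state. None of the 9 passed in fasted livers, where 0.771% of all tested genes did, in refed livers, where 0.174% did, or averaged over feeding states, where 1.51% did. At an unadjusted p under 0.05, 1 of the 9 genes was counted in each of the 3 comparisons, where 1613, 1456 and 2139 of the 14920 tested genes were. DESeq2 and limma-voom also called 0 of the 9. Among all genes DESeq2 called 371, 179 and 603 of 27589, and limma-voom 110, 25 and 207 of 14920. In refed livers Gys2 was at -0.54 (SE 0.187, edgeR adjusted p = 0.350), and it was 1 gene of the 9 whose refed groups did not overlap, with all low isoleucine libraries lower, as in 2.24% of all tested genes. In fasted livers Pygl was at -0.31 (SE 0.148, edgeR adjusted p = 0.458), and it was likewise the 1 gene whose fasted groups did not overlap, with the low isoleucine libraries lower, as in 4.4% of tested genes. Marker lists also separated the diets. In fasted livers the summed hepatocyte markers were 61024 to 94055 CPM on the control diet and 94520 to 114061 on low isoleucine, the Kupffer markers 307 to 403 and 195 to 288, and the lymphocyte markers 4.17 to 5.80 and 1.68 to 4.15. In refed livers the hepatocyte markers were 75821 to 79181 on the control diet and 79841 to 102696 on low isoleucine. The part of these markers in the diet values was not tested. Averaged over feeding states, Gys2 was at -0.34 (95% interval -0.62 to -0.06, edgeR adjusted p = 0.230). The low isoleucine refed libraries of Gys2 and the low isoleucine fasted libraries of Pygl enter both the refeeding and the diet comparison, so those values are not independent of each other.

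For the targeting subunits the diet differences had wide intervals. Ppp1r3b was at 0.20 in fasted livers (95% interval -0.27 to 0.68) and at -0.23 in refed livers (-0.70 to 0.25), the latter being -0.47 without control refed library 4 (edgeR adjusted p = 0.205). Ppp1r3c was at 0.11 (-0.56 to 0.78) and 0.41 (-0.26 to 1.07). Ppp1r3g was at -0.98 in fasted livers (-2.51 to 0.54, edgeR adjusted p = 0.701), with the library spread given above, and the value was -0.18 without control fasted library 3 and -0.31 with limma-voom. The remaining genes other than Pygl, given above at -0.31, lay between -0.14 and 0.15 in fasted livers. In refed livers Gyg was at -0.18, Ugp2 at -0.08, Gbe1 at 0.12, Pygl at 0.05 and Phka2 at 0.12.

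The interaction, the refeeding response on the low isoleucine diet minus that on the control diet, passed for 0 of the 9 genes and for 0% of all tested genes with edgeR. At an unadjusted p under 0.05 edgeR counted 0 of the 9 and 928 of all genes, while DESeq2 called 35 genes and limma-voom 0 after adjustment, none of them among the 9. Its values were -0.43 for Ppp1r3b (95% interval -1.11 to 0.24), 0.30 for Ppp1r3c (-0.65 to 1.24), 0.55 for Ppp1r3g (-3.83 to 4.94) and -0.33 for Gyg (-0.84 to 0.18). The refeeding responses of these genes were not shown to differ between the diets.

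In the authors' deposited tables none of the 9 genes had a Benjamini-Hochberg value under 0.05 for diet, where 91 of 14211 genes had one in fasted and 39 in refed livers. The authors' deposited table for refed livers gives Gys2 a log2 fold change of -0.54 with a Benjamini-Hochberg value of 0.415. For Pygl in fasted livers the authors' deposited table gives -0.32 with 0.576. Refeeding has no such table here.

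Ranked by CPM per kb of exon, Gys2 led in 3 groups, at 169 ± 42.2 in control fasted livers, 153 ± 25.6 after a fast on low isoleucine, and 124 ± 16.9 in control refed livers (SD, n = 4). In low isoleucine refed livers Ugp2 came first with 99.9 ± 15.05 and Gys2 second with 85.6 ± 17.7, though their libraries overlapped. Ugp2 varied little in its mean, from 95.6 to 106 CPM per kb, and overlapped with Gys2 in each group other than control fasted. Pygl at 27.1 ± 1.92 ranked above Ppp1r3b at 21.7 ± 3.55 in control fasted livers, with overlapping libraries. After refeeding Ppp1r3b ranked behind only Ugp2 and Gys2 in both diets, at 60.03 ± 21.9 and 51.2 ± 5.45, overlapping with the next gene, which was Pygl at 30.6 ± 6.18 on the control diet and Ppp1r3c at 33.8 ± 13.3 on the low isoleucine diet. Gbe1, between 10.5 and 16.1 CPM per kb, was sixth in every group and did not overlap with Phka2 below it, which had 3.47 to 4.10. Ppp1r3g and Gyg took the last places, with overlapping libraries in both fasted groups and without overlap in both refed groups.

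The wider pathway was taken from a list of 32 other glycogen genes, of which 28 were tested, leaving out Ppp1r3a, Ppp1r3d, Ppp1r3f and Phkg1. The muscle targeting subunit Ppp1r3a reached at most 0.0367 CPM. Averaged over diets, 13 of the 28 passed on refeeding, 8 upward and 5 downward, where 16.4% of all tested genes rose and 16.5% fell. The median of the 28 was 0.06 against 0.02 over all tested genes. On the control diet 4 rose and 1 fell, where 8.91% of all tested genes rose and 8.2% fell. On the low isoleucine diet 6 rose and 3 fell, where 9.6% and 11.8% did. None of the 28 passed in any diet comparison or in the interaction.

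The PP1 side was split. Ppp1r3e, another targeting subunit, rose by 0.48 (SE 0.119, edgeR adjusted p = 0.00471). Taken singly, it passed on control (0.0343) and not on low isoleucine (0.0873). The catalytic subunit genes Ppp1cc and Ppp1cb were lower by -0.59 (edgeR adjusted p = 1.22e-05) and -0.36 (0.0437), and Ppp1ca at -0.13 did not pass. Ppp1cb passed on neither diet alone (edgeR adjusted p = 0.383 on control and 0.0908 on low isoleucine). Of the synthesis list, Pgm2 rose by 0.61 (edgeR adjusted p = 0.0378), and Gys1, the muscle form of the synthase, at 0.31, and Pgm1, at -0.12, did not pass. Pgm2 passed on neither diet alone (edgeR adjusted p = 0.206 on control and 0.162 on low isoleucine). It stood at 8.19 CPM in control refed library 4. The other control refed libraries, at 2.92 to 3.1 CPM, lay within its fasted range of 2.11 to 3.97 CPM. Of the breakdown list, which held Pygb, Pygm and Gaa, none of 3 passed. Among phosphorylase kinase genes the catalytic subunit Phkg2 was lower at -0.33 (edgeR adjusted p = 0.00881), and Calm3 of the same list was higher at 0.38 (0.00126). Phkg2 passed on neither diet alone (edgeR adjusted p = 0.0702 on control and 0.0911 on low isoleucine). Calm3 passed on low isoleucine (0.00337) and not on control (0.145).

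Nhlrc1, which encodes the ubiquitin ligase malin, rose by 0.75 (edgeR adjusted p = 0.000635), Stbd1, a glycogen-binding protein of the glycogen autophagy route, by 0.35 (0.00133), and laforin, Epm2a, at -0.11 did not pass. The AMP-activated kinase beta subunits, which carry glycogen-binding domains, rose by 0.66 for Prkab1 (edgeR adjusted p = 0.00017) and 0.94 for Prkab2 (0.000309), and each passed on both diets. Glycogen synthase kinase Gsk3b was lower at -0.34 (edgeR adjusted p = 0.00306). The protein kinase A catalytic genes split, with Prkaca at 0.34 (edgeR adjusted p = 0.00485) and Prkacb at -0.37 (0.00335). Stbd1, Gsk3b, Prkaca and Prkacb passed on low isoleucine and not on control, where edgeR adjusted p was 0.0505, 0.206, 0.308 and 0.0855.

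Of 5 genes that act on glucose 6-phosphate entry and exit, the catalytic subunit of glucose 6-phosphatase (G6pc) fell with a value of -1.43 (edgeR adjusted p = 0.00237), and 4 did not pass. Of 7 genes chosen as checks of feeding state, Srebf1 and Fasn rose, Pck1, Igfbp1, Irs2 and Insr fell, and the glucagon receptor gene Gcgr did not pass. Igfbp1 in low isoleucine refed libraries 2 and 4, at 79.0 and 107 CPM, lay within the fasted range of 44.6 to 243 CPM.

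**Figure D4:**
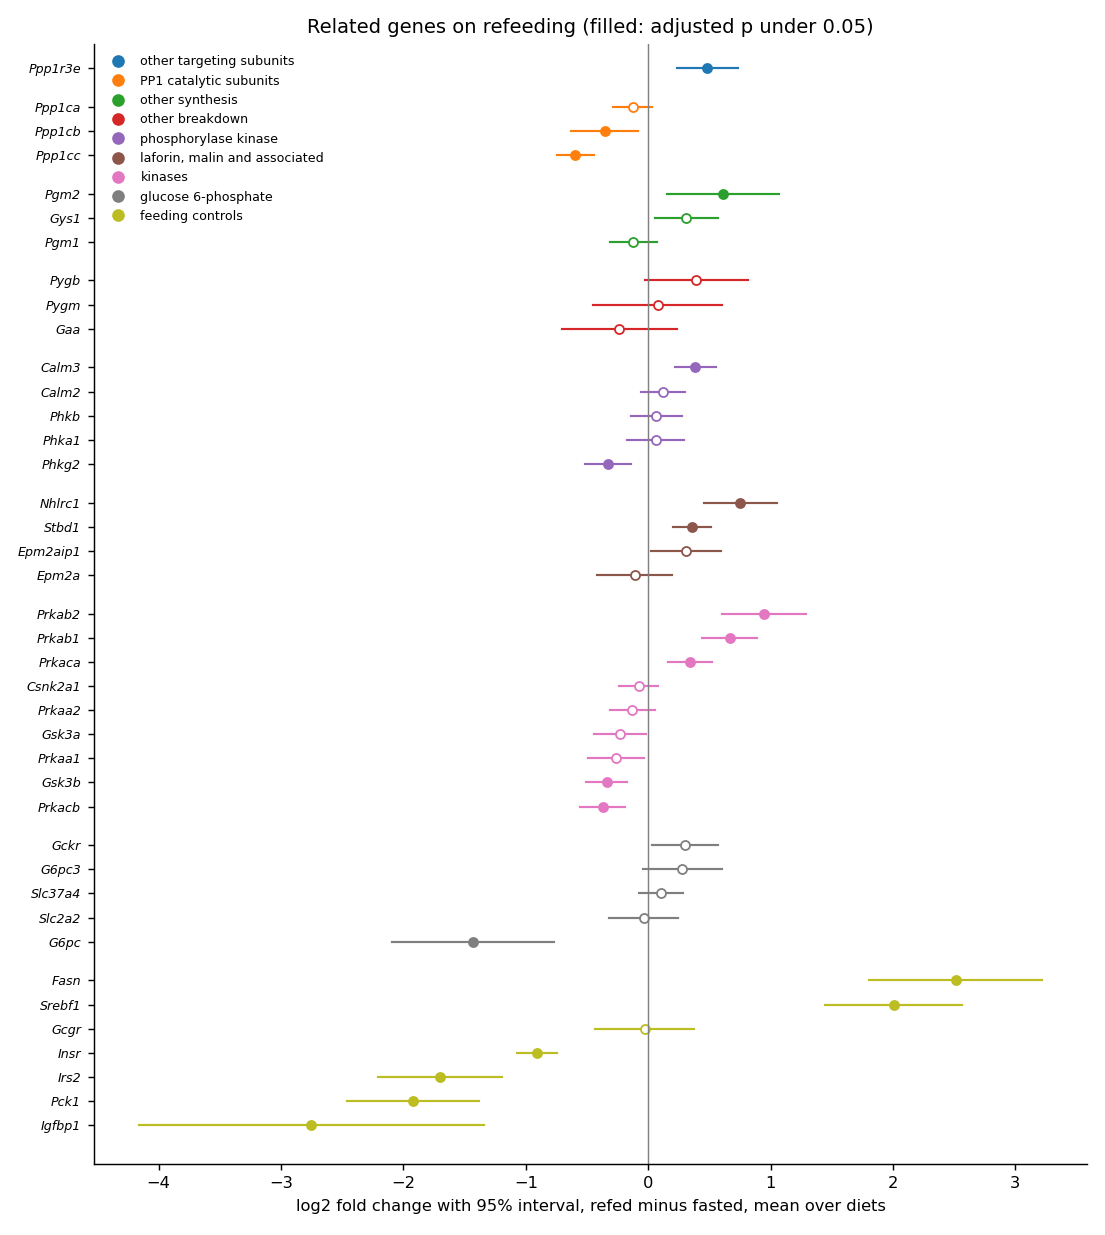
Log2 fold change of refed over fasted livers, averaged over the diets, for the tested genes of each related list, with 95% intervals; filled points have an edgeR adjusted p under 0.05. Fasn at 2.51 was the highest and Igfbp1 at -2.75 the lowest of the plotted genes, and the glycogen genes lie between -0.59 and 0.94.

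The genes whose levels over the 16 libraries were most like those of each targeting subunit were ranked by Pearson r of log2 CPM among 12173 genes. Fasted and refed libraries are pooled in r, and it was not computed within a feeding state. For Ppp1r3b they were Opa3 (0.968), Ccdc134 (0.959), Tkfc (0.957), Ssr2 (0.952) and Fkbp4 (0.952), and the lowest was Slc7a2 (-0.955). For Ppp1r3c they were Exoc3 (0.917), Mettl3 (0.895), Inpp5b (0.895), Gpsm2 (0.882) and Mmp19 (0.879), with Cebpb lowest (-0.892). For Ppp1r3g they were Ackr2 (0.958), Tbc1d30 (0.953), Heca (0.945), Ccng2 (0.937) and Map3k5 (0.935), with Lrrc42 lowest (-0.951).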

How the data were processed

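Liver RNA was sequenced in 16 libraries, 4 per combination of diet and feeding state. The authors deposited expected counts from RSEM, as the file headers name them, and 10.2% of these values were fractional. Lanes were merged per sample before expression estimation, per the labels' protocols. The sources used here do not give an aligner, genome build or annotation. Of tools, edgeR, R 3.5.3 and limma are named in the submitters' processing notes, with no role. Per the file headers, the authors' deposited diet tables hold p-values, raw and adjusted, beside the F score, the log2 fold change and the mean log2 CPM of each gene.

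After rounding the estimated counts, edgeR 4.0.16 under R 4.3.3 was used. All 51912 rows, of which 279 had no symbol, entered the library sizes. Genes were filtered with filterByExpr (minimum count 10, minimum total 15), which left 14920, and scaled by TMM. The quasi-likelihood model, fitted robustly, had a mean for each group and used all 16 libraries, and each contrast was adjusted by Benjamini-Hochberg over all tested genes (threshold 0.05). A standard error is the log2 fold change, without sign, over the root of its F, and 95% intervals are approximate. The 9 genes, the related lists and the named genes (all 9 members, listed genes that passed or had a named role, and the 5 most and 3 least alike for each targeting subunit, of which the lowest is printed) were chosen with earlier results of these data known. Exon lengths and gene coordinates are from GENCODE M21 (GRCm38), matched by gene identifier. Library totals of 24368656 to 34002955 counts bound the precision, and counting intervals cover counting error only. Alternatives were limma-voom (limma 3.58.1), DESeq2 1.42.0, other scalings and filters, a block on the label mark and leaving out each library. The test was checked on simulated counts. Of genes given a 1.5-fold change, it recovered 30% for diet in fasted livers, 22.9% for refeeding on control and 7.14% for the interaction. At 2-fold it recovered 75.7%, 74.3% and 42.9%. False calls were 13 of 143, 5 of 130 and 3 of 91, in the same order. Some genes of the related lists are not reported here, and the lists' counts leave them out.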

Additional observations from a re-analysis of the deposited data

Results flagged for a closer look

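Of 36 groups of 4 libraries examined (each of the 9 genes in each of the 4 groups), 1 held a library far from the others by Dixon's criterion. This was Gyg in control refed library 4, at 8.78 CPM, where the other 3 control refed libraries lay between 6.75 and 6.88 CPM. At the 95% level about 1 group in 20 passes this criterion by chance. The same library had the highest summed Kupffer cell, stellate cell and endothelial markers of the 16, and their part in this value was not tested.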

How the results depend on the processing

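Over the alternatives the 9 genes gave 1610 log2 fold changes, of which 1500 kept their direction and side of the threshold, 50 lost the call, 4 gained it and 56 changed sign. Ppp1r3b and Ppp1r3g kept their refeeding calls on both diets in every alternative run, as did Ppp1r3c and Gys2 on the low isoleucine diet. The count of genes that passed on refeeding was 4 on the control diet (2 with no low-count filter, 2 to 4 with a library left out, 2 without control fasted 4, control refed 1 or control refed 3), 6 on the low isoleucine diet (4 to 6 with a library left out) and 7 averaged over diets (6 to 7). Among all genes, the fit with no low-count filter called 1969 of 27589 on the control diet. With a library left out, calls among all genes ran from 1817 to 2743 (control), 2423 to 3601 (low isoleucine) and 4438 to 5363 (mean). The diet and interaction counts of the 9 genes were 0 in every alternative. Calls among all genes there ran from 6 to 371 (fasted), 3 to 179 (refed), 115 to 603 (mean) and 0 to 35 (interaction).

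The values that changed sign had not passed. With library size alone they were Phka2 on low isoleucine refeeding at 0.054 and Ppp1r3b for mean diet at 0.020. With limma-voom they were the interactions of Ppp1r3g at -0.043 and Ugp2 at 0.024 and mean diet of Ppp1r3b at 0.027, and with upper-quartile scaling the interaction of Ugp2 at 0.017. With a library left out, fasted diet values ranged from -0.12 to 0.30 for Ppp1r3c, -0.33 to 0.057 for Ugp2, -0.27 to 0.015 for Gys2, -0.0038 to 0.14 for Gbe1 and -0.16 to 0.044 for Phka2. Refed diet values ranged from -1.35 to 0.59 for Ppp1r3g, -0.049 to 0.32 for Gbe1 and -0.098 to 0.14 for Pygl, and low isoleucine refeeding from -0.064 to 0.32 for Ugp2 and -0.15 to 0.043 for Phka2. Interactions ranged from -0.36 to 1.57 for Ppp1r3g, -0.14 to 0.24 for Ugp2 and -0.13 to 0.23 for Gbe1, and mean diet from -0.14 to 0.056 for Ppp1r3b, -0.087 to 0.034 for Gyg and -0.020 to 0.080 for Phka2. The cause was not tested. Library size alone moved the median refeeding change of all genes from 0.02 to 0.14, averaged over diets.

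Without dividing by exon length, the share of Ppp1r3b among targeting subunits was 75.5% and 81.8% in control fasted and refed livers and 78.4% and 77.3% on low isoleucine; that of Ppp1r3c was 18.2% in control fasted and 18.1% and 21.7% in low isoleucine fasted and refed livers. That of Ppp1r3e was 1.97%, 1.58%, 1.16% and 1.01% in control fasted, low isoleucine fasted, control refed and low isoleucine refed livers.

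Libraries of different groups share a mark in the labels. Of 24 pairs with the same mark 8 had a correlation of deviations over 0.1 (range -0.32 to 0.32), and 6 of 16 libraries were closest to their own mark, so the marks were not taken to pair libraries. With the replicate block by mark, 4, 6 and 6 of the 9 genes passed on refeeding (control, low isoleucine and mean). Of the 14920 tested genes 2301, 2983 and 4714 did. None of the 9 passed for diet or interaction, where 77 (fasted), 25 (refed), 186 (mean) and 0 (interaction) of all tested genes did. Gyg was lost (edgeR adjusted p = 0.0824 on control and 0.0567 on the mean), and Gbe1 passed on control (0.0436, edgeR). The interaction of Ppp1r3g was -0.14 and its fasted diet value -0.39.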

Other observations

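With group means removed, Gbe1 and Pygl varied together most among the 9 genes over the 16 libraries (Pearson r 0.892), a relation between a synthesis and a breakdown gene that was noticed in the data. All pairs were then tested within the 8 fasted libraries, and all pairs without Ppp1r3g, which was near 0 there, within the 8 refed libraries, 64 relations in all, with exact permutation tests. Libraries of both diets were permuted together and diet means were kept, so a diet difference can raise or lower these values. None passed after Benjamini-Hochberg adjustment. In refed livers Gbe1 and Pygl had r = 0.892 and rho = 0.857 (exact permutation p = 0.00285 and 0.0107, adjusted 0.138 and 0.229), and r was 0.71 without the 2 libraries farthest from the median, control refed 3 and 4. Within the refed diets r was 0.917 on control and 0.877 on low isoleucine, over 4 libraries each. In fasted livers the same pair had r = 0.256 (exact permutation p = 0.547, adjusted 0.886). Within the fasted diets its r was 0.906 on control and 0.895 on low isoleucine, over 4 libraries each. In fasted livers Gyg and Gbe1 had r = 0.893 and rho = 0.929 (exact permutation p = 0.0043 and 0.00223, adjusted 0.138 and 0.143), and r was 0.943 without the 2 farthest libraries, control fasted 1 and low isoleucine fasted 1.

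Ppp1r3g, which spread over a wide range in fasted livers, was set beside Gys2 across the same 8 libraries: r was 0.706 (exact permutation p = 0.0493, adjusted 0.288) and rho was 0.524 (exact permutation p = 0.197, adjusted 0.576). The relation rested on control fasted libraries 2 and 3, since r was 0.193 without them. Within the diets r was 0.982 on control and -0.202 on low isoleucine, over 4 libraries each. It was not the strongest relation of a targeting subunit in these libraries. By exact permutation, r was -0.823 for Ppp1r3b with Ugp2 (p = 0.0155, adjusted 0.282) and 0.723 for Ppp1r3c with Phka2 (p = 0.0422, adjusted 0.288). For Ppp1r3g with Phka2 it was -0.714 (exact permutation p = 0.0468, adjusted 0.288).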
